A study of Mus musculus with 12 samples.

Results

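The troponin and tropomyosin genes encode the calcium switch of the thin filament of striated muscle. The 10 genes described here are Tnnc1 and Tnnc2 (troponin C), Tnni1, Tnni2 and Tnni3 (troponin I), Tnnt1, Tnnt2 and Tnnt3 (troponin T), and Tpm1 and Tpm2 (tropomyosin). Their probes were found by gene symbol in the platform's annotation. They had 17 of the 41174 probes and made up 10 of the 19087 named genes of the table, and all 17 probes passed the filter on empty cells. In RefSeq (GRCm38.p6) Tnni2, Tnni3, Tnnt1 and Tnnt3 lie on chromosome 7, Tnnt2 and Tnni1 on chromosome 1, Tnnc2 on 2, Tpm2 on 4, Tpm1 on 9 and Tnnc1 on 14.

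The study compared transcripts in mouse hearts with and without alpha2, a catalytic subunit of AMPK, the kinase that senses a shortage of cellular energy. Cardiac ventricle was taken at 7 months of age from C57B6 mice, 6 of them AMPK alpha 2 +/+ (WT) and 6 AMPK alpha 2 -/- (KO). Every animal was hybridised on 1 Agilent array of 2 colours against a common reference RNA from 11 mouse cell lines, so a log2 ratio of 0 means equal signal in ventricle and reference. In both genotypes the heart carried Cy3 in replicates 1 to 3 and Cy5 in replicates 4 to 6. The labels do not say how the allele was made, whether WT and KO animals were littermates or which cell lines the reference holds.

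In a resting sarcomere, tropomyosin lies along the actin filament and hides the sites to which myosin binds. Calcium binds troponin C, troponin C draws troponin I away from actin, and troponin T, which anchors the complex, passes the movement on to tropomyosin. Each subunit exists in versions made by separate genes. Tnni3 and Tnnt2 are the cardiac troponin I and T, Tnnc1 serves both heart and slow skeletal muscle, Tnni1 and Tnnt1 belong to slow fibres, and Tnni2, Tnnt3 and Tnnc2 to fast fibres. Tnni1 is also the troponin I of the fetal heart. Tpm1 gives the main tropomyosin of the mouse heart and, through other promoters and exons, tropomyosins of smooth muscle and non-muscle cells, and Tpm2 gives beta-tropomyosin of skeletal and smooth muscle. AMPK is known to phosphorylate the cardiac troponin I protein, which RNA levels do not show.

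The arrays carried the profile of heart muscle. All 14 listed cardiomyocyte markers other than the troponins and tropomyosins lay above the reference by the test used below, with a median log2 ratio of 5.83 in WT. Of 15 skeletal muscle markers 5 lay above it, Acta1 (3.38), Mybpc2 (3.21), Myh4 (2.95), Atp2a1 (2.31) and Cacna1s (1.03), and 2 below, Mylpf (-0.66) and Actn3 (-1.30). The other 8 did not pass (Myh1, Myh2, Mylk2, Casq1, Pvalb, Mybpc1, Myoz1 and Ryr1), and the median of the list was 0.14. Empty cells took 39.2% of WT replicate 3, 41.7% of KO replicate 4 and 26.2% of KO replicate 1. Tnnc1, Tnni3 and Tnnt1 had no value for KO replicate 4, so their fits drop that animal. The atrial marker Myl7 was high in WT replicate 2 (7.19) and KO replicate 1 (7.09), where the remaining arrays with a value had 0.88 to 4.96. Myl4 (5.64 and 5.56) and Sln (3.79 and 4.38) were high on these arrays too. Nppa did not stand out (5.58 and 5.08, beside 4.42 to 5.63 over all arrays). Bmp10 was -0.12 in WT replicate 2 and had no value in KO replicate 1. WT replicate 6, with no Myl7 value, had Myl4 at 3.67 and Sln at 2.85. KO replicate 6 carried lung (Sftpc at 6.13) and liver transcripts (Fgb at 6.02, Alb at 5.90) besides Myl7 at 4.96. In WT replicate 2 the fat markers Adipoq (3.93) and Ucp1 (3.81) were also high. Cidea (5.56, beside 4.58 to 6.01 over all arrays) and Lep (0.07, beside -0.39 to 0.42) did not stand out there. Plin1 did not pass the filter on empty cells.

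By their means over probes, the cardiac genes and Tpm1 stood far above the reference, and the genes of slow and fast skeletal muscle lay near it. Probe 22068 of Tpm1 lay below the reference (-1.72 in WT). Printed here are 5 promoters, those of the 4 genes with means far above the reference and that of Tnnt1, the slow troponin T gene. They are the 250 bases before the transcription start listed first in RefSeq for each gene (GRCm38.p6). Which start gives the measured RNA was not determined. The set of promoter windows used here held 8 of the 10 genes and lacked Tnni2 and Tnnt3. It held 2 windows each for Tnnt2 and Tnni1, of which the first was searched, while the shares of all windows below count every window. The windows are chr14:31208062-31208311 on the plus strand for Tnnc1, chr1:135836084-135836333 on the plus strand for Tnnt2, chr9:67049214-67049463 on the minus strand for Tpm1, chr7:4522529-4522778 on the minus strand for Tnni3 and chr7:4515976-4516225 on the minus strand for Tnnt1. Each is written 5′ to 3′ in the direction of the gene. Capitals mark the M-CAT hexamer CATTCC or its complement GGAATG, to which TEAD factors bind in cardiac and skeletal muscle genes. They also mark the GATA core GATAA or its complement TTATC, and TATAAA, a form of the TATA box.
Tnnc1: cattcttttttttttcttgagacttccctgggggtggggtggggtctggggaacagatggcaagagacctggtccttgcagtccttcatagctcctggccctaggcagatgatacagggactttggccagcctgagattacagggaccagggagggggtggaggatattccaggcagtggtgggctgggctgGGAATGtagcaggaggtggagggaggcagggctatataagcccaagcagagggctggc
Tnnt2: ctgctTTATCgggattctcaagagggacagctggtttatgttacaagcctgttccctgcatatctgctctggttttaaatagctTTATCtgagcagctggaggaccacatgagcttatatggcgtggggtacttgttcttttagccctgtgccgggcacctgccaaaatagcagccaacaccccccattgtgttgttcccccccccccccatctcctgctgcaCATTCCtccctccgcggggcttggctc
Tpm1: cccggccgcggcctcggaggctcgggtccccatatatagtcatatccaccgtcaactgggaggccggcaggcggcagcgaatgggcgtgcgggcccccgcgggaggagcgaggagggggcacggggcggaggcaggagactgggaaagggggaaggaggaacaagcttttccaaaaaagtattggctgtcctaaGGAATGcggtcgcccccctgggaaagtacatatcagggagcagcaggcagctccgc
Tnni3: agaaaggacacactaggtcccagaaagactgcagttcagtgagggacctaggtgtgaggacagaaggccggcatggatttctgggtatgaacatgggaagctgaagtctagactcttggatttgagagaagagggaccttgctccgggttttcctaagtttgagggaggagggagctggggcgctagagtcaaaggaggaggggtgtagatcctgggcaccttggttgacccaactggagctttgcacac
Tnnt1: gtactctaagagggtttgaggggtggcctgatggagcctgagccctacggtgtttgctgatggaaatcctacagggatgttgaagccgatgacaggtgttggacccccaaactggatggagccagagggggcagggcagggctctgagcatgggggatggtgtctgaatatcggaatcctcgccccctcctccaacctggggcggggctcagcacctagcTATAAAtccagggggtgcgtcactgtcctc

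M-CAT letters occurred in 3 of the 8 windows, those of Tnnc1 (58 to 53 bases before the start), Tnnt2 (27 to 22) and Tpm1 (56 to 51), and in 12.6% of 32851 windows of the same length over all genes. GATAA occurred at 2 places in the Tnnt2 window and in no other of the 8, against 22.6% of all windows. TATAAA occurred in the Tnnt1 window (30 to 25 bases before the start), against 12.4% of all. Only these exact letters were searched, so other forms of the TATA box were not counted. The letters tatataa near the end of the Tnnc1 window are therefore unmarked. Both strands were searched, and none of these matches overlapped another. The MEF2 and CArG motifs, searched by their usual consensus, matched none of the 8 windows and 2.92% and 1.47% of all. A match is a run of letters and not a shown binding site. The motifs were chosen with the levels known.

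**Figure D1:**
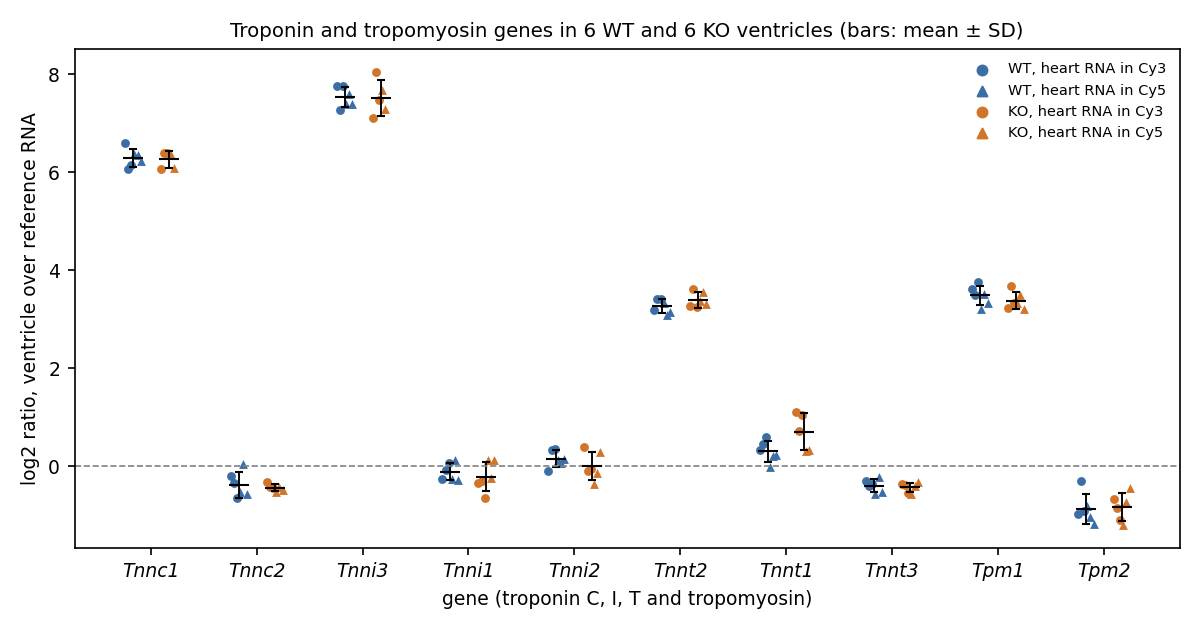
Log2 ratio of ventricle over reference RNA (y axis) for the 10 genes (x axis) in each animal, WT in blue and KO in orange, with circles for heart RNA in Cy3, triangles for Cy5, and bars for the mean ± SD. Tnni3 and Tnnc1 lie above 6 on every array that measured them, Tnnt2 and Tpm1 between 3.09 and 3.76, and the other genes between -1.20 and 1.11.

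Cardiac troponin I, Tnni3, had the highest ratio over the reference of the 10 genes. In WT animals its log2 ratio ran from 7.27 through a median of 7.49 to 7.76, with a mean of 7.53 ± 0.21 (SD, n = 6), which is a 184-fold ratio if the deposited values are log2. The 5 KO animals with a value had 7.11, 8.04, 7.48, 7.68 and 7.28. KO replicates 1 and 2 were thus the lowest and the highest of all animals. Of all features 99.98% had a lower WT ratio. A ratio over the reference depends on the reference as much as on the heart, so it does not rank the transcripts of different genes by amount. In whole ventricle, fewer cells of a type and less RNA per cell cannot be told apart.

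Tnnc1, the cardiac and slow troponin C, came next. WT animals had log2 ratios of 6.06 to 6.59 with a median of 6.29 (mean 6.29 ± 0.19, SD, n = 6), and KO animals had 6.06, 6.40, 6.40, 6.38 and 6.08. No animal's Tnnc1 value reached the lowest Tnni3 value. Tpm1 (WT mean 3.49 ± 0.19, SD, n = 6, range 3.22 to 3.76) and the cardiac troponin T gene Tnnt2 (3.26 ± 0.14, SD, n = 6, range 3.09 to 3.42) followed, and the ranges of these neighbours overlapped. Both values average probes that differed widely, as given below.

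The skeletal genes lay close to the reference or slightly below. The values used here are ratios alone. Near a ratio of 0, equal expression and weak signal in both channels could therefore not be told apart. Tnnt1, slow troponin T, had a WT mean of 0.31 ± 0.21 (SD, n = 6), fast troponin I, Tnni2, 0.16 ± 0.17, slow and fetal troponin I, Tnni1, -0.11 ± 0.17, fast troponin C, Tnnc2, -0.37 ± 0.26, and fast troponin T, Tnnt3, -0.39 ± 0.13. Tpm2, beta-tropomyosin, was the lowest with -0.86 ± 0.30 (SD, n = 6). From Tnnt1 to Tpm2, neighbours in this order overlapped in range over all animals, while Tnnt1 lay below Tnnt2 on every array. Tnnt3 and Tpm2 were below 0 on all 12 arrays, Tnnc2 on 11, Tnni1 on 8 and Tnni2 on 5, while Tnnt1 was above 0 on 10 of 11.

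In limma, with genotype and dye orientation as terms, 8 of the 10 genes differed from a ratio of 0 in WT animals at adjusted p under 0.05 (Benjamini-Hochberg over 25821 features), against 45.7% of all features. The 5 above the reference were Tnni3, Tnnc1, Tpm1, Tnnt2 and Tnnt1, against 21.9% of all features called higher, and the 3 below it were Tnnc2, Tnnt3 and Tpm2, against 23.8% called lower. Adjusted p was at most 1.22e-13 for the 4 highest genes, 0.00335 for Tnnt1, 0.00168 for Tnnc2, 8.4e-05 for Tnnt3 and 1.41e-05 for Tpm2. Tnni1 (adjusted p = 0.388) and Tnni2 (0.189) did not pass. The reference is 1 pool, so the test leaves out the spread of the reference itself. With heart RNA in Cy5 alone, Tnnc2 (-0.35, adjusted p = 0.0683) and Tnnt1 (0.14, adjusted p = 0.299) did not pass in limma.

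Within an array, the gap is the log2 ratio of a skeletal gene minus that of its cardiac counterpart. For Tnni1 minus Tnni3 it was -7.63 ± 0.23 in WT (SD, n = 6) and -7.80 ± 0.49 in KO (SD, n = 5). The gap of Tnni2 to Tnni3 was -7.37 ± 0.31 in WT and -7.43 ± 0.59 in KO, and that of Tnnc2 to Tnnc1 was -6.66 ± 0.25 and -6.68 ± 0.21. The gap of Tnnt3 to Tnnt2 was -3.66 ± 0.22 in WT and -3.82 ± 0.17 in KO, and that of Tpm2 to Tpm1 was -4.35 ± 0.36 and -4.21 ± 0.37. The gap of Tnnt1 to Tnnt2 was -2.96 ± 0.19 in WT and -2.69 ± 0.49 in KO, where KO replicates 1 and 3 stood apart at -2.16 and -2.19 and the other 3 lay between -3.23 and -2.90. For all 6 pairs the ranges of WT and KO animals overlapped. Tpm1 and Tnnt2 enter the gaps as means over probes that differed widely, as given below. By WT means, Tpm2 (-0.86) lay below Tpm1 probes 7174 (6.25) and 13448 (5.94) and above probe 22068 (-1.72). The Tnnt2 probes had WT means of 4.64 and 1.83. Each gap also holds the ratio of both genes in the reference, so its size is not the ratio of the transcripts in the heart, and no test was made of the gaps.

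The probes of Tpm1 fell on both sides of the reference. Probe 7174, annotated to NM_024427, had a log2 ratio of 6.25 ± 0.40 in WT (SD, n = 6) and 6.20 ± 0.32 in KO (SD, n = 5). Probe 13448, annotated to the cDNA AK077713, had 5.94 ± 0.27 and 5.64 ± 0.44. Probe 22068, annotated to NM_024427 like the first, had -1.72 ± 0.21 in WT and -1.69 ± 0.14 in KO (SD, n = 6 and 6). In the fit of probes it was called below the reference in WT (limma adjusted p = 2.05e-10). Within an array the first probe lay 7.12 to 8.80 above the third, so the values of these probes did not overlap. The mean of 3.49 for the gene therefore describes neither kind of probe. Where in the transcript each probe lies was not known here, and the RNA that each one reads was not determined.

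The probes of Tnnt2 also differed. Probe 39983, annotated to NM_011619, had 4.64 ± 0.19 in WT (SD, n = 6), and probe 31308, annotated to the cDNA AK086260, had 1.83 ± 0.28 (SD, n = 5). In KO they had 4.43 ± 0.54 (SD, n = 6) and 2.35 ± 0.37 (SD, n = 5). The gap between them was 2.33 to 3.43 on the 5 WT arrays with both, and 0.64, 1.85, 2.62, 3.04 and 1.87 in KO replicates 1, 3, 4, 5 and 6. KO replicate 1 had the highest value of all arrays on probe 31308 (2.95) and the lowest on probe 39983 (3.58). Averaging the probes therefore hides opposite deviations of that array.

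The remaining pairs of probes lay closer together. The Tnni3 probes 18240 and 24955 had 7.36 ± 0.27 and 7.69 ± 0.18 in WT (SD, n = 6), and their gap was largest in KO replicate 2 (1.42, against at most 0.65 elsewhere). The Tnni1 probes had -0.25 ± 0.20 and 0.01 ± 0.34, the Tnnt3 probes -0.25 ± 0.15 and -0.55 ± 0.19, and the Tpm2 probes -0.94 ± 0.33 and -0.78 ± 0.32 in WT. At the level of probes 8 of 17 were above the reference (21.6% of all 36826 probes), 6 were below (23.4% of all), and 3 did not pass in limma, where 45% of all probes passed in either direction. Between the genotypes 0 of 17 probes passed, against 0.00543% of all probes, with 0.854 as the smallest adjusted p in limma.

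**Figure D2:**
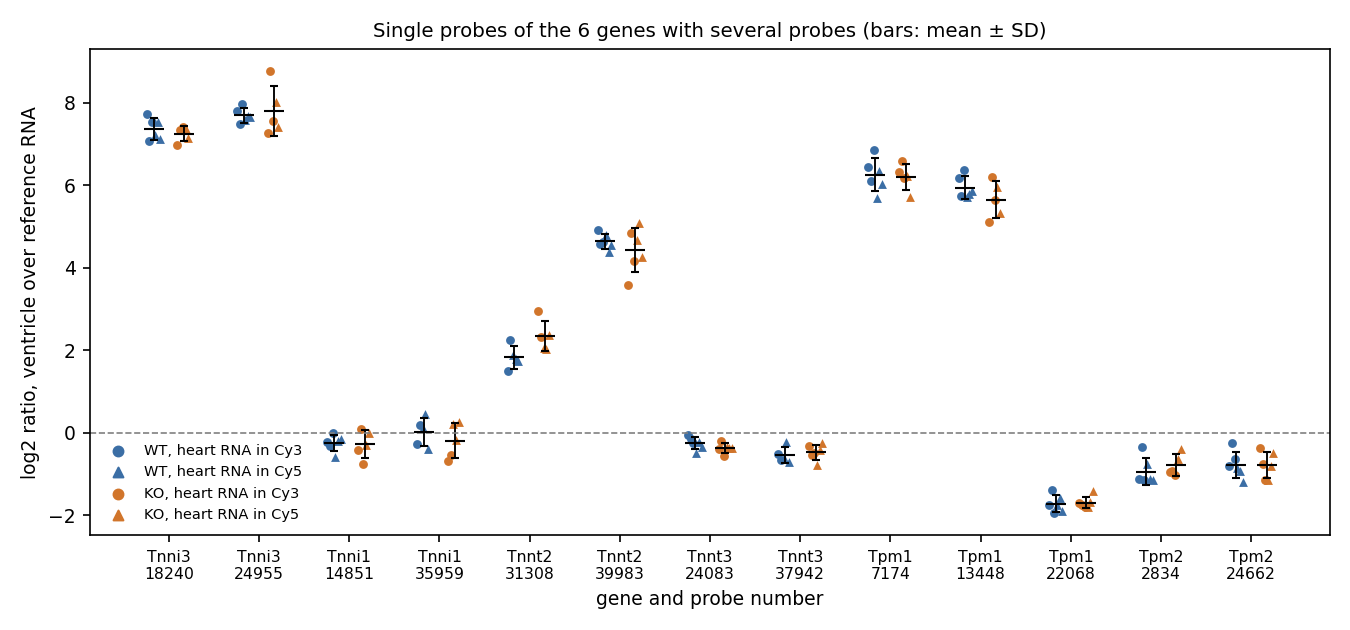
Log2 ratio over the reference (y axis) of the single probes of the 6 genes that had more than 1 probe (x axis, with the probe number), by animal, coloured and shaped by genotype and dye, with bars for mean ± SD. Tpm1 probes 7174 and 13448 lie near 6 and probe 22068 near -1.7, and Tnnt2 probe 39983 lies above probe 31308 on every array with both.

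No troponin or tropomyosin gene passed the test between the genotypes. In limma 0 of 10 passed at adjusted p under 0.05, where 0.00387% of all 25821 features passed. At an unadjusted p under 0.05 there was 1 gene, Tnnt1, against 5.33% of all features. Of the 10 genes 3 were higher and 7 lower in KO, and over all features 12843 were higher and 12978 lower. The median log2 difference of the 10 genes was -0.03, beside -0.0009 over all features. The WT and KO values did not overlap in 0 of the 10 genes, against 0.279% of the 8609 features with a value on all 12 arrays. The endothelial markers were higher in KO in 5 of 5, with a median of 0.29, and 3 of them had an unadjusted p under 0.05 (Cdh5, Tek and Esam) while 0 passed in limma. Their part in the differences below was not tested. The median standard error of the 10 differences was 0.12.

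**Figure D3:**
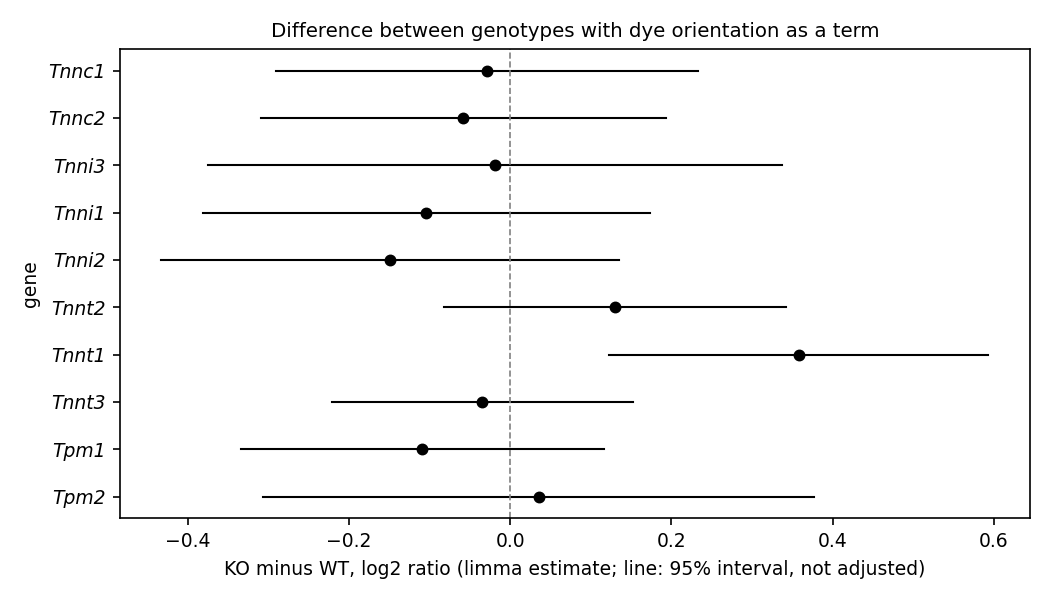
KO minus WT difference of the log2 ratio (x axis) for the 10 genes (y axis), from limma with dye orientation as a term; points are estimates and lines are 95% intervals without adjustment for the number of features. The interval lies above 0 for Tnnt1 (0.12 to 0.59) and includes it for the other 9 genes.

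Among the troponin I genes, Tnni3 differed by -0.02 ± 0.16 (SE), with a 95% interval of -0.37 to 0.34. Its 2 probes differed in sign (-0.13 and 0.09). Tnni1 differed by -0.10 ± 0.13 (interval -0.38 to 0.17), with WT animals from -0.27 through a median of -0.16 to 0.12 and KO animals from -0.64 through -0.27 to 0.13. KO replicate 3 was the lowest animal. Tnni1 was at -0.34 in KO relative to WT with heart RNA in Cy3 and at 0.13 in Cy5, and the difference between these 2 values did not pass (0.48 ± 0.23, limma adjusted p = 0.935). Tnni2 differed by -0.15 ± 0.13 (interval -0.43 to 0.13), with KO replicate 4 the lowest animal at -0.36 and KO replicate 1 the highest at 0.40. Its difference was -0.08 without KO replicate 4, and -0.29 without WT replicate 2, KO replicate 1 and KO replicate 6 (unadjusted p of 0.032 and adjusted p of 0.994 in limma). For these 3 genes limma gave an adjusted p of 0.952 to 0.995.

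Neither troponin C gene passed (limma adjusted p = 0.993 and 0.978). Tnnc1 differed by -0.03 ± 0.12 (SE, interval -0.29 to 0.23) and Tnnc2 by -0.06 ± 0.12 (interval -0.31 to 0.19). Tnnc2 ran from -0.65 through -0.44 to 0.05 in WT and from -0.52 through -0.43 to -0.31 in KO, so that the KO animals lay inside the range of the WT animals. WT replicate 5 was the 1 animal above the reference.

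Of the troponin T genes, Tnnt1 had the smallest p of the 10, and it did not pass. Its 6 WT animals ran from -0.01 through a median of 0.28 to 0.61, and its 5 KO animals had 1.11, 0.72, 1.05, 0.33 and 0.34 in replicates 1, 2, 3, 5 and 6. The 3 KO animals with heart RNA in Cy3 were above every WT animal, and the 2 in Cy5 were not. The difference was 0.36 ± 0.11 (SE, interval 0.12 to 0.59), with a limma p of 0.00617 across all features and adjusted p = 0.834, which put it at rank 190 by p among all features. It was 0.49 ± 0.15 with heart RNA in Cy3 and 0.19 ± 0.15 in Cy5. The test of the difference between those 2 values did not pass (-0.30 ± 0.21, limma adjusted p = 0.935), and over all features 0% passed that test. Over 24 other settings the difference ran from 0.19 to 0.49 with limma adjusted p of at least 0.69. Without WT replicate 2, KO replicate 1 and KO replicate 6 it was 0.31 ± 0.14 (SE, limma adjusted p = 0.994), and without WT replicate 6 as well, a setting chosen after seeing the data, it was 0.34 ± 0.15 (SE, limma adjusted p = 0.901).

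Tnnt1 was also the 1 gene of the 10 that differed between dye orientations. It was lower by -0.46 ± 0.11 (SE) with heart RNA in Cy5 than in Cy3 (limma adjusted p = 0.0309), where 5.71% of all features passed, 2.32% higher and 3.39% lower in Cy5. In WT the mean was 0.47 in Cy3 and 0.14 in Cy5, and in KO it was 0.96 and 0.33. Each dye orientation holds different animals, so dye and animals cannot be told apart. Of the 15 skeletal muscle markers 6 were higher and 9 lower in KO, with a median of -0.02. The mean level of the 7 measured on all arrays was 1.01 to 1.41 in WT and 1.15 to 1.47 in KO. Those 7 differed by 0.58 (Casq1), 0.30 (Mybpc2), 0.18 (Myoz1), 0.10 (Myh1), 0.03 (Myh4), -0.01 (Atp2a1) and -0.09 (Ryr1). Casq1, the calsequestrin of skeletal muscle, differed by 0.58 ± 0.18 (SE) and Actn3, the fast fibre actinin, by -0.43 ± 0.10, and neither passed (limma adjusted p = 0.815 and 0.47). The list was drawn up for skeletal muscle as a whole and not for the slow fibres to which Tnnt1 belongs. The part of other muscle in the Tnnt1 values was not tested.

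**Figure D4:**
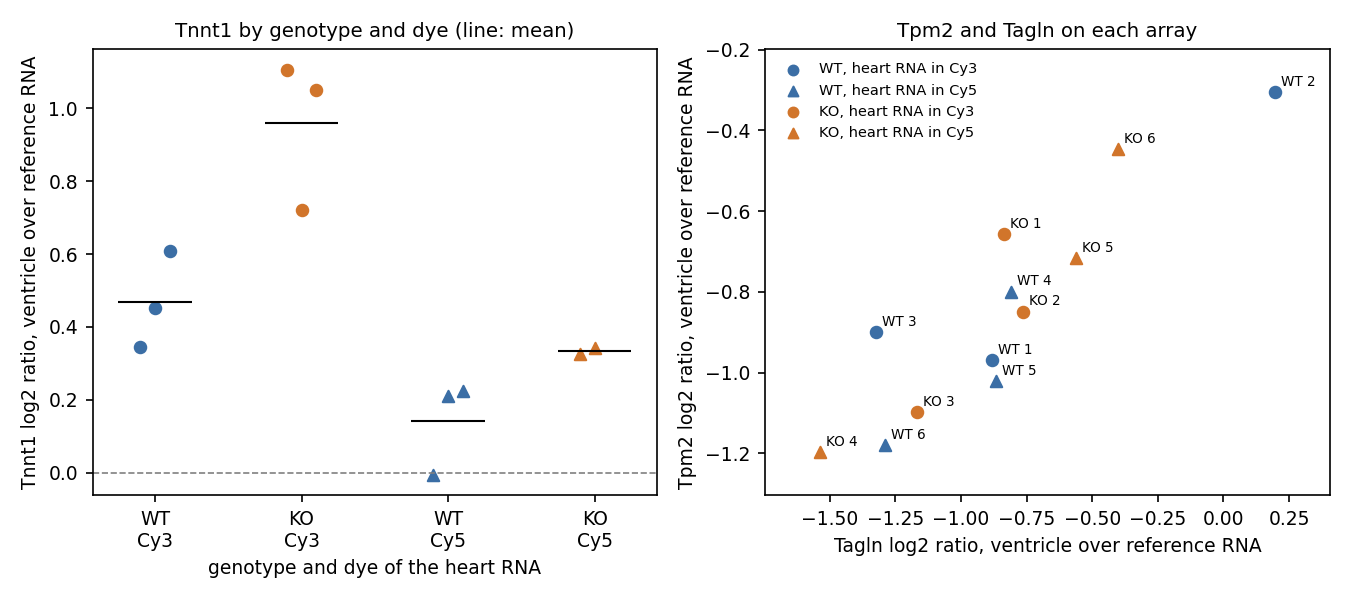
Left, Tnnt1 log2 ratio over the reference (y axis) by genotype and dye of the heart RNA (x axis), with 1 point per animal and a line at the mean. Right, Tpm2 log2 ratio (y axis) against Tagln log2 ratio (x axis) on the 12 arrays; WT replicate 2 and KO replicate 6 are highest in both genes.

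Tnnt2 differed by 0.13 ± 0.10 (SE, interval -0.08 to 0.34), with WT animals from 3.09 through 3.26 to 3.42 and KO animals from 3.24 through 3.34 to 3.62. The probes went opposite ways, with 0.52 ± 0.17 for probe 31308 and -0.21 ± 0.21 for probe 39983. Neither passed in the fit of probes (limma adjusted p = 0.89 and 0.951). Tnnt3 differed by -0.03 ± 0.09 (interval -0.22 to 0.15), the narrowest interval of the 10, and its probes also differed in sign (-0.12 and 0.07). The adjusted p of Tnnt2 and Tnnt3 was 0.943 and 0.984 in limma.

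Tpm1 differed by -0.11 ± 0.10 (SE, interval -0.33 to 0.12), with WT animals from 3.22 through 3.50 to 3.76 and KO animals from 3.20 through 3.34 to 3.67. By probe the differences were -0.09 ± 0.17 for 7174, -0.32 ± 0.20 for 13448 and 0.03 ± 0.11 for 22068. KO replicate 4 had a value on probe 22068 alone, and with the plain mean over the probes measured on an array the difference of the gene became -0.97 ± 0.71 (SE). Tpm2 differed by 0.04 ± 0.16 (SE, interval -0.31 to 0.38). Its WT animals ran from -1.18 through -0.93 to -0.31 and its KO animals from -1.20 through -0.78 to -0.45. The adjusted p of Tpm1 and Tpm2 was 0.952 and 0.993 in limma.

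The spread of Tpm2 between animals was set beside other genes. WT replicate 2 (-0.31), KO replicate 6 (-0.45) and KO replicate 1 (-0.66) had its highest values, and KO replicate 4 (-1.20) and WT replicate 6 (-1.18) its lowest. The gene of most similar pattern over 12 arrays, among 7426 genes measured on all of them, was Tagln, the smooth muscle protein transgelin (Pearson r = 0.90, and 0.81 over the 9 arrays without WT replicate 2, KO replicate 1 and KO replicate 6). Itga8, an integrin subunit, and Car3, a carbonic anhydrase, followed at 0.84 and 0.83, and at 0.49 and 0.47 without those arrays. Tagln itself stood at 0.20 in WT replicate 2 and -0.40 in KO replicate 6, while the remaining arrays had -1.54 to -0.56. Over all arrays with both values, the r of Tpm2 with the remaining smooth muscle markers was 0.90 for Lmod1, 0.78 for Cnn1, 0.70 for Myh11, 0.31 for Acta2 and -0.03 for Smtn (10 to 12 arrays). Without the 3 arrays just named it was 0.82, 0.39, 0.44, 0.21 and 0.004 (7 to 9 arrays). Of the 6 smooth muscle markers 4 lay above and 1 below the reference. The mean level of the 3 measured on all arrays, Tagln, Myh11 and Acta2, was 0.02 to 1.14 in WT and 0.07 to 0.96 in KO, highest in WT replicate 2. WT replicate 2 is also the array with high Adipoq and Ucp1, markers of fat. The part of smooth muscle or fat in the Tpm2 values was not tested.

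For the other variable genes, Tnnt1 was most like Cers4, a ceramide synthase (r = 0.93), Kin (0.93) and Pcbp4 (0.92) over 11 arrays. Tnni3 was most like Ndufa10, a subunit of respiratory complex I (0.91), the globin gene Hbb-bt (0.90) and Glipr1 (0.86). These likenesses describe the order of the same arrays, which share dye, genotype and dissection, and were taken as the highest among 10782 genes.

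Of 19 measured partners of the thin filament 14 lay above and 2 below the reference in WT. Mybpc3, cardiac myosin binding protein C (7.13 ± 0.41, SD, n = 5), and Nrap, an actin-binding protein of the intercalated disc (6.33 ± 0.21, SD, n = 6), were highest. The other tropomyosin genes Tpm4 (-1.05 ± 0.37, SD, n = 6) and Tpm3 (-1.01 ± 0.20) were lowest. Between genotypes 10 were higher and 9 lower in KO, with a median of 0.002, and 0 passed in limma, with 2 at unadjusted p under 0.05. These were Tmod4, a skeletal tropomodulin that caps the pointed end (-0.55 ± 0.16, SE), and Pdlim3, an actinin-binding protein (0.49 ± 0.22), followed by the actin genes Acta1 (-0.40 ± 0.22) and Acta2 (0.27 ± 0.15). Their limma adjusted p was 0.815 to 0.935.

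Transcription factors of sarcomere genes were nearly all above the reference. Of 18 measured factors 16 lay above and 1, Nfatc4 (-0.34 ± 0.12, SD, n = 6), below it, and Six4 (-0.10 ± 0.14) did not pass. Nkx2-5 (3.67 ± 0.30) and Myocd (2.25 ± 0.24) had the highest ratios in WT. In KO 16 factors were higher and 2 lower, where 12843 of all 25821 features were higher. The signs come from the same arrays and are not independent. The median difference was 0.05, beside -0.0009 over all features and 0.29 for the endothelial markers. In limma 0 factors passed, with 1 at unadjusted p under 0.05. The smallest p values belonged to Esrrg, an oestrogen-related receptor (0.30 ± 0.13, SE), Tead1, a factor that binds M-CAT (0.22 ± 0.12), Srf, which binds the CArG motif (0.19 ± 0.12), and Mef2d (0.13 ± 0.11), with limma adjusted p of 0.93 to 0.95.

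Splicing factors that act on troponin T and tropomyosin transcripts were split around the reference, with 7 of 14 above and 6 below. Rbm24 (4.99 ± 0.44, SD, n = 6) and Rbfox1 (4.34 ± 0.31), both active in striated muscle, were the highest in WT. Ptbp1, which represses muscle exons (-1.63 ± 0.17), and Srsf2 (-0.98 ± 0.13) were the lowest. Between genotypes 10 were higher and 4 lower in KO, where 12843 of all 25821 features were higher. The median was 0.05, and 0 passed in limma, with 1 at unadjusted p under 0.05. Rbfox1 differed by -0.37 ± 0.15 (SE), Rbfox2 by 0.17 ± 0.09, Srsf2 by 0.12 ± 0.07 and Mbnl1 by 0.13 ± 0.10, with limma adjusted p of 0.911 to 0.943.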

How the data were processed

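The authors deposited 1 signed log ratio per probe and array, 41174 probes on 12 arrays of 12 animals, read here as log2 of heart over reference from the values, with a normalization by the authors that is not given in the sources used here. The base of the logarithm is not stated either, and with another base every difference and error would scale by the same factor. Array medians of the deposited values lay between -0.03 and 0.07, and arrays of opposite dye correlated at 0.835 or more over probes. No column was left unused. The platform annotation gave 31700 probes 1 symbol, 47 several and 9427 none. Entrez identifiers of 31564 matched RefSeq, and 0 symbols changed.

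A probe was kept with at least 2 values for WT and for KO in each dye, which kept 36826 and left out 4348. This gave 25821 features, of which 17837 were named genes. Probes of a gene were combined by least squares with a term per probe and per array, which gives their mean where none is empty. KO replicate 4 therefore rests on 1 probe for Tpm1, Tpm2 and Tnni1, WT replicate 3 for Tnni1, Tnnt2 and Tnnt3, KO replicate 1 for Tnni1 and KO replicate 2 for Tnnt2. Genotype and dye were the terms of a linear model in limma 3.58.1 under R 4.3.3 (lmFit, eBayes, two-sided), with Benjamini-Hochberg adjustment over all features and a threshold of 0.05. A mean is given with the SD between animals and a difference with its moderated SE. Precision is limited by how many arrays there are. The script was tested on simulated data. Python 3.11.15, pandas 2.3.3 and matplotlib 3.10.9 were used for promoters and plots.

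Probes were matched to the members by symbol alone, but the members and lists were chosen with earlier results of these data known. All 10 genes are named. Of each list, up to 4 genes of smallest p and 2 each of highest and lowest ratio are named, and for the 3 genes of largest SD the 3 of most similar pattern. Nothing says whether animals were littermates. Alternatives were dye, block, centring, quantile, probe mean, weights, empty cells, arrays left out and single dyes. The replicate numbers do not mark shared litters or days in the labels.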

Additional observations from a re-analysis of the deposited data

Results flagged for a closer look

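For 1 probe the highest KO animal stood apart from the others of its group. Tpm1 probe 22068 was -1.42 in KO replicate 6, against -1.81 to -1.67 in the other 5 KO animals. KO replicate 6 is also the array with lung and liver transcripts, and WT replicate 2 had the highest WT value on that probe (-1.38). KO replicate 1, which had high Myl7 like WT replicate 2, was at -1.71. The part of other tissue in these values was not tested. Of the 20 groups of animals at the level of genes 0 had such an animal, and of the 26 groups at the level of probes 1 had. Chance marks about 1 group in 20.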

How the results depend on the processing

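No gene of the 10 passed between the genotypes under any alternative, including each single array left out. The number of features called between the genotypes was 1, and it became 2 with quantile normalization, on features measured on all 12 arrays, without WT replicate 2, KO replicate 1 and KO replicate 6 (the 3 arrays), and with heart RNA in Cy3 alone, and 0 in Cy5 alone. WT replicate 6 also held atrial transcripts, and without these 4 arrays, a setting chosen after seeing the data, the number was 3. It was 1 to 3 with single arrays left out, and 3 without KO replicate 6. Features called over the reference were 11797, and 5449 on all 12 arrays, where fewer were tested. They were 11101 to 11850 with single arrays left out. Of the 7 troponin and tropomyosin genes on all 12 arrays 5 passed over the reference, against 8 of 10.

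The sign of KO minus WT turned in 8 genes, none of them past the threshold, and the cause was not tested. Tnnc1 was 0.0163 in Cy3 alone, 0.0444 without the 3 arrays, 0.0245 without the 4 and 0.00187 with array weights, and -0.0856 to 0.0474 with single arrays left out. Tnnc2 was 0.00933 in Cy3 alone (-0.122 to 0.037 with single arrays left out). Tnni1 was 0.134 in Cy5 alone. Tnni3 was 0.0218 in Cy5 alone, 0.0957 without the 3 arrays, 0.0756 without the 4, 0.0246 without the 2 of most empty cells, 0.0701 with array weights and 0.0894 for probe 24955 (-0.14 to 0.0934 with single arrays left out). Tnnt3 was 0.00683 in Cy5 alone and 0.0723 for probe 37942 (-0.0658 to 0.00764 with single arrays left out). Tpm2 was -0.142 in Cy3 alone, -0.0425 without the 4 arrays and -0.0045 for probe 24662 (-0.0598 to 0.148 with single arrays left out). By probe, Tnnt2 was -0.208 for 39983 and Tpm1 was 0.0252 for 22068.

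With the replicate block 1 feature and 0 of the 10 genes were called, and Tnnt1 was 0.34 (limma adjusted p = 0.969). Residuals of WT and KO arrays of the same number correlated at -0.34 to -0.07. Removing the genotype and dye means pushes such correlations below 0 by itself. Each array was then compared only with arrays of the other genotype and the same dye, and 1 of 12 correlated best with its own number. These values do not decide whether the numbers mark pairs.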
